A study of Mus musculus with 6 samples.

Results

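The SR, hnRNP and SF3 splicing factor genes were followed in Lewis cells, a mouse lung carcinoma line, after treatment with SD70. Members were taken by gene symbol alone: symbols that begin with Srsf and a digit (the SR proteins), with Hnrnp (the heterogeneous nuclear ribonucleoproteins), or with Sf3a or Sf3b and a digit (the SF3 complex), leaving out 1 hnRNP gene that is not reported here. This gave 40 genes of the 16081 listed, made up of 11 SR, 20 hnRNP and 9 SF3 genes. Of these 40, 38 passed the filter on low counts and were tested among 11552 genes. Cells of 1 line were grown in culture and received DMSO, the vehicle, or SD70, an inhibitor of the histone demethylase KDM4C, and RNA was sequenced from 3 samples per group after 24 hours. The dose of SD70 used for sequencing is not given in the sources used here, and the study's general statement that its experiments were repeated independently does not say whether the 3 sequenced samples of a group came from separate cultures, so p-values measure only the spread between these samples, which may be technical. The comparison asks how SD70 changed the RNA of the cells.

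Splicing removes introns from a new transcript and joins its exons. SR proteins carry an arginine- and serine-rich tail, bind enhancer sequences mostly within exons, and help the spliceosome recognise nearby splice sites. hnRNP proteins coat nascent RNA, often bind silencer sequences, and also take part in RNA export, stability and translation. The SF3A and SF3B proteins belong to the U2 snRNP, the particle that recognises the branch point, and SF3B1 holds the branch region of the intron. Many SR and hnRNP genes are known to limit their own RNA through poison exons, which send the transcript to nonsense-mediated decay (NMD).

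The libraries held 15276744 to 17060424 counts, with 14062 to 14105 genes above 0. Kdm4c, the gene of the inhibited enzyme, averaged 753 normalised counts with DMSO (SD 34.6, n = 3) against 765 in the treated cells (SD 34.2, n = 3), and its log2 fold change was 0.02 (edgeR adjusted p = 0.769). This RNA level does not report on the enzyme's activity. Of 8 epithelial and lung markers, Epcam, Cdh1, Krt19 and Sftpc had at most 1 count in any sample, 3 were tested and Nkx2-1 was not analysed here, while Krt8 was present and the list summed to 4104 to 4295 counts with DMSO and 2494 to 2981 with SD70. The mesenchymal list, of which Vim gives most of the counts, summed to 76873 to 86301 counts with DMSO and 54749 to 61876 with SD70, while Zeb1 of the same list rose by 0.63 on the log2 scale (edgeR adjusted p = 2.11e-12). The 8 immune cell markers summed to 274 to 289 counts with DMSO and 192 to 221 with SD70, most of it Cd68, and Ptprc was at 0 in every DMSO sample and at 1 to 2 counts in the SD70 samples. The part of these marker shifts in the results below was not tested. In bulk RNA, fewer cells of a kind and less RNA per cell cannot be told apart.

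Promoters are shown for the member of each family with the largest rise and the largest fall that passed the test, because these 6 genes mark the ends of the changes described below. Each run is read 5′ to 3′ along the gene's strand from RefSeq, build GRCm38.p6, and covers 300 bases, of which 250 lie before and 50 after the annotated start. Srsf6 lies at chr2:162931258-162931557 on the plus strand, Srsf9 at chr5:115326927-115327226 on the plus strand and Hnrnpu at chr1:178337766-178338065 on the minus strand. Hnrnph2 lies at chrX:134600929-134601228 on the plus strand, Sf3a2 at chr10:80798485-80798784 on the plus strand and Sf3b1 at chr1:55027429-55027728 on the minus strand. Capitals mark exact matches, on either strand, to 6 motifs: the E-box CACGTG, the cAMP response element half-site TGACGT, the CCAAT box, the GC box GGGCGG, the ETS site CCGGAAG and the TATA box TATAAA.
Srsf6: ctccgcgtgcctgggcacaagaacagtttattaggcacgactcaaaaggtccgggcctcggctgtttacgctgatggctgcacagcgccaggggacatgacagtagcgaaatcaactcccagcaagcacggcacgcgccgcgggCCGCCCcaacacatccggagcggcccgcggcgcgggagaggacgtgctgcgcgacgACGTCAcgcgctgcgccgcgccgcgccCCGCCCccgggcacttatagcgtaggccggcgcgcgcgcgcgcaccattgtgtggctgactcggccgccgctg
Srsf9: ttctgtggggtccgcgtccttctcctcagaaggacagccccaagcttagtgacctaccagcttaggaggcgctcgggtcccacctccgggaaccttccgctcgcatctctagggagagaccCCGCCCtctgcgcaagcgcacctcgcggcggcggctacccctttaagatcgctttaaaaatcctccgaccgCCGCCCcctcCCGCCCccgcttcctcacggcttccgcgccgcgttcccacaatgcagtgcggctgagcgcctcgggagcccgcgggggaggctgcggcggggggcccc
Hnrnpu: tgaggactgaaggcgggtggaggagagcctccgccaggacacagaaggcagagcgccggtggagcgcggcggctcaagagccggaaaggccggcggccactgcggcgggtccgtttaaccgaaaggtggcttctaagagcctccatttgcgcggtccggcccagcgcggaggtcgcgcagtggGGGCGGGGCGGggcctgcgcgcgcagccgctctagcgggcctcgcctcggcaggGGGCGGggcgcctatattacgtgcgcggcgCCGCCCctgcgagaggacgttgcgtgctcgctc
Hnrnph2: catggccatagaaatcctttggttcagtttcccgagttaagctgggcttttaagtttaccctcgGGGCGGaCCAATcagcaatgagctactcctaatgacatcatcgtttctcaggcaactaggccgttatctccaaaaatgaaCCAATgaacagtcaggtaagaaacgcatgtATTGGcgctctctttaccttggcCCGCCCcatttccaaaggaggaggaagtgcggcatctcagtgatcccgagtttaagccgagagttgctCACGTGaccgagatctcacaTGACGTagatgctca
Sf3a2: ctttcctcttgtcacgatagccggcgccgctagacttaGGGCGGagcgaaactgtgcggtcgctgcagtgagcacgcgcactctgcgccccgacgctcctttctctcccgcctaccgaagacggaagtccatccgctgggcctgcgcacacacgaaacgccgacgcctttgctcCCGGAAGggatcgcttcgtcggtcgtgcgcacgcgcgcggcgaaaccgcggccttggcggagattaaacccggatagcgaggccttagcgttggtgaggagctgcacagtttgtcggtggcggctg
Sf3b1: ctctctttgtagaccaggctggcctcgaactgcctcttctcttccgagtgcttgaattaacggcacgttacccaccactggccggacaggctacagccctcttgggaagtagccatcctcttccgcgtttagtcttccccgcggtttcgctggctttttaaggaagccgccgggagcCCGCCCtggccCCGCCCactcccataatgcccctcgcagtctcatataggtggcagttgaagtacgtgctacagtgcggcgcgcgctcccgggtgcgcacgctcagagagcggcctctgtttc
The Srsf6 promoter, of the SR gene that rose most, held 2 GC boxes and 1 half-site TGACGT, and the Srsf9 promoter, of the SR gene that fell most, held 3 GC boxes. Hnrnpu held 4 GC boxes, 2 of which share a base, whereas Hnrnph2 held 3 CCAAT boxes, 2 GC boxes, 1 E-box and 1 half-site. Sf3a2 held 1 ETS site and 1 GC box, and Sf3b1 held 2 GC boxes. The GC content was 49.0% for Hnrnph2 and 61.0% to 72.7% for the other 5 promoters.

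With SD70, 16 of the 38 tested members rose and 5 fell at an adjusted p under 0.01 (edgeR quasi-likelihood test with Benjamini-Hochberg adjustment over all genes tested), and 17 passed in neither direction. Across all genes tested, 49.9% passed, 25.8% higher and 24.2% lower, so the 55.3% of members that passed is near the background, while the 42.1% that rose lies above the share of all genes that rose and the 13.2% that fell lies below the share that fell. Of the genes that passed, 76.2% of members and 51.6% of all genes were higher with SD70. The median log2 fold change was 0.12 over members and 0.00 over all genes tested. These counts describe the members, which were not tested against other genes as a list.

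The changes were small. No member passed the test with an absolute log2 fold change of 1 or more, against 5.9% of all genes, and this count was 0 under edgeR, DESeq2 and limma, since the largest change among the members was 0.52. No member changed by 1.5-fold or more in this fit either, whereas 2112 of the 11552 genes tested did, with 81.7% under this fold. Without SD70 1, though, Sf3a2 reached a log2 fold change of 0.61, just past 1.5-fold. At an unadjusted p under 0.05, 27 of the 38 tested members differed, 20 of them higher. The same held for 7351 of the 11552 genes tested, 3724 of them higher. The 3 SD70 samples all lay above the 3 DMSO samples for 22 members and all below for 6, with overlap for 10, and the same held for 32.8% (above) and 31.6% (below) of all genes. An exact permutation test of a single gene with 3 samples against 3 cannot give a two-sided p under 0.1, so the tests here come from the fit across all genes.

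**Figure D1:**
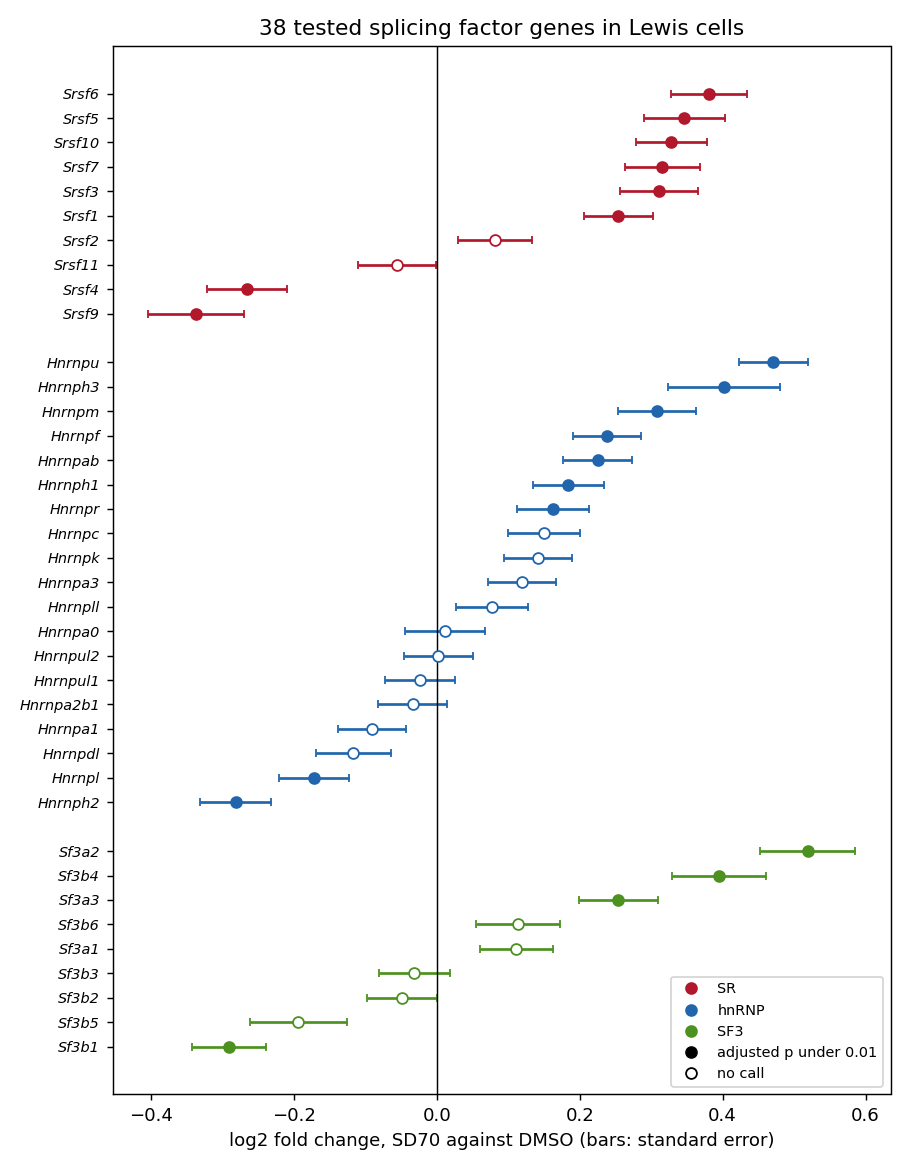
Log2 fold change of SD70 against DMSO for the 38 tested members, by family, with bars for the standard error; filled points passed at an adjusted p under 0.01 and open points did not. Filled points to the right of 0 number 16 and those to the left 5, and no member lies beyond 0.52 in either direction.

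The SR proteins were the family with the largest share of calls: 6 of 10 tested genes rose, 2 fell and 2 passed in neither direction, or 60% higher and 20% lower beside 25.8% and 24.2% of all genes, with a median log2 fold change of 0.28 and a range of -0.34 to 0.38. Srsf6, Srsf5, Srsf10, Srsf7, Srsf3 and Srsf1 rose by 1.19- to 1.3-fold. Srsf9 and Srsf4 fell. The summed FPKM of the SR genes (reads per length and depth) was 748 ± 35.7 with DMSO and 822 ± 7.36 with SD70 (mean ± SD of 3 samples each), with no overlap between the groups.

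Srsf6, a regulator of alternative exons, had 2759, 3151 and 3074 normalised counts across the vehicle samples against 3916, 3736 and 4050 across the treated ones. The groups did not overlap, and DMSO 1 was the lowest of the 6. The log2 fold change was 0.38 (SE 0.0532, edgeR adjusted p = 1.67e-07), the largest rise among SR genes. Srsf5 had 1558, 1791 and 1625 normalised counts with DMSO and 2190, 2125 and 2009 with SD70. All SD70 samples of this gene were above all DMSO samples, by 0.35 on the log2 scale (SE 0.0565, edgeR adjusted p = 2.67e-06). Srsf10, whose protein represses splicing once dephosphorylated, had 3326, 3548 and 3476 normalised counts with DMSO and 4487, 4207 and 4302 with SD70. The spread within each group was small beside the gap, and the log2 fold change was 0.33 (SE 0.0496, edgeR adjusted p = 7.13e-07).

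Srsf7, which along with Srsf3 also couples splicing to RNA export, had 2771, 3202 and 2995 normalised counts with DMSO and 3655, 3770 and 3737 with SD70. The groups did not overlap and DMSO 1 was again the lowest, with a log2 fold change of 0.32 (SE 0.0524, edgeR adjusted p = 3.61e-06). Srsf3 had 2765, 3322 and 3114 normalised counts with DMSO and 3838, 3821 and 3755 with SD70. Its SD70 samples were tighter than its DMSO samples and all above them, by 0.31 on the log2 scale (SE 0.0549, edgeR adjusted p = 1.05e-05). Srsf1, the founding SR protein and a regulator of many cassette exons, had 5767, 6150 and 6111 normalised counts with DMSO and 7069, 7020 and 7415 with SD70. The lowest SD70 sample was above the highest DMSO sample, and the log2 fold change was 0.25 (SE 0.0489, edgeR adjusted p = 3.36e-05).

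Srsf9 went the other way, with 744, 823 and 890 normalised counts with DMSO and 640, 652 and 652 with SD70. Every SD70 sample was below every DMSO sample although the DMSO samples were spread, and the log2 fold change was -0.34 (SE 0.0673, edgeR adjusted p = 5.90e-05). Srsf4 had 1196, 1199 and 1166 normalised counts with DMSO and 992, 983 and 987 with SD70. Both groups were tight and apart, at a log2 fold change of -0.27 (SE 0.0561, edgeR adjusted p = 1.20e-04). In the GENCODE annotation, 43.0% of the exonic bases of Srsf4 are also exonic in Gm12992 on the opposite strand, and since counting by strand is not given in the sources used here, reads of the pair cannot be told apart.

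The SR genes with the highest FPKM with DMSO, Srsf2 and Srsf11, did not pass. Srsf2, the most abundant per length at 148 ± 10.2 FPKM with DMSO (SD, n = 3), had 4238, 4789 and 4771 normalised counts with DMSO and 4815, 4895 and 4889 with SD70. The SD70 samples lay just above the highest DMSO sample, the log2 fold change was 0.08 (SE 0.0514, edgeR adjusted p = 0.173), and on the FPKM scale the groups overlapped, at 137, 155 and 154 against 149, 152 and 153. Exons of Mettl23 and Mfsd11 cover 25.3% of its exonic bases from the opposite strand, and of these Mettl23 fell from 227 to 179 normalised counts (log2 fold change -0.34, edgeR adjusted p = 0.00416) while Mfsd11 had 288 and 331 (edgeR adjusted p = 0.0598). Srsf11, second at 83.9 ± 4.87 FPKM, had 4230, 4000 and 3780 normalised counts with DMSO and 4151, 3595 and 3808 with SD70, which overlap (log2 fold change -0.06, SE 0.0545, edgeR adjusted p = 0.388). Srsf12 was not tested: it had 0 counts in 5 samples and 2 counts in SD70 2, and SR expression from this gene was not detectable at this depth in the DMSO samples.

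DMSO 1 stood below the other DMSO samples for the SR family as a whole. The median over SR genes of each sample's log2 ratio to the DMSO mean was -0.10, 0.05 and 0.02 for DMSO 1 to 3 and 0.26, 0.26 and 0.28 for SD70 1 to 3, and the groups did not overlap. Without DMSO 1 the SR median log2 fold change was 0.23, and all 8 SR calls held under each of the 14 alternatives run.

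**Figure D2:**
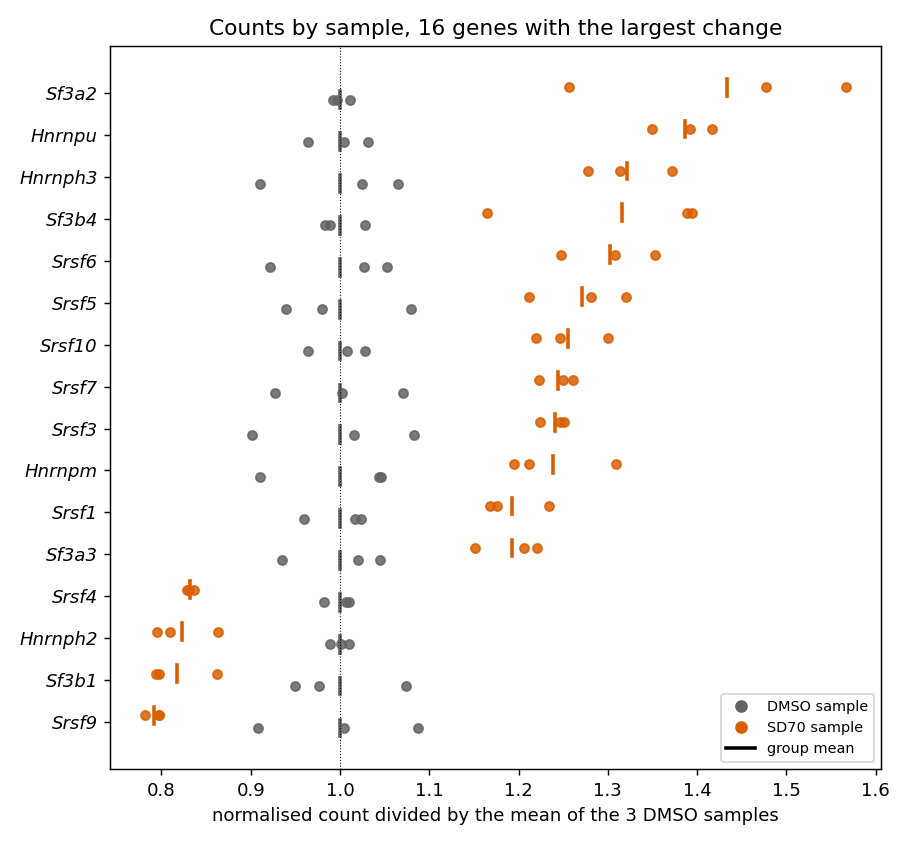
Normalised count of each sample divided by the mean of the 3 DMSO samples, for the 16 members with the largest absolute log2 fold change among those that passed the test; grey points are DMSO samples, orange points SD70 samples and vertical strokes group means. The groups do not overlap for any of the 16 genes, and Sf3a2 and Sf3b4 have 1 SD70 sample well below the other 2.

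The hnRNP genes had the highest summed FPKM of the 3 families. Of 19 tested genes 7 rose, 2 fell and 10 passed in neither direction, so that 47.4% were called, near the 49.9% of all genes, with a median log2 fold change of 0.12 (range -0.28 to 0.47). In the limma fits on FPKM this median was 0.05, and 5 rather than 7 genes were called higher, as also with library totals alone. Hnrnpu, Hnrnph3 and Hnrnpm led the rises, followed by Hnrnpf, Hnrnpab, Hnrnph1 and Hnrnpr. Hnrnph2 and Hnrnpl fell. Their summed FPKM was 3520 ± 73.7 with DMSO and 3670 ± 63.8 with SD70 (mean ± SD of 3 samples each), a ratio of 1.04 with no overlap between the groups.

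Hnrnpu, which binds nuclear RNA and chromatin as scaffold attachment factor A, had 13934, 14889 and 14508 normalised counts with DMSO and 20110, 19496 and 20458 with SD70. The groups were far apart relative to their spread, and the log2 fold change of 0.47 (SE 0.0478, edgeR adjusted p = 1.96e-10), or 1.39-fold, had the smallest adjusted p of all members. Cox20 exons overlap 6.93% of its exonic bases from the opposite strand, and Cox20 itself had 241 normalised counts with DMSO and 212 with SD70 (edgeR adjusted p = 0.143). Hnrnpm, a regulator of alternative splicing in epithelial and mesenchymal states, had 3914, 4492 and 4500 normalised counts with DMSO and 5212, 5140 and 5634 with SD70. DMSO 1 was the lowest and the groups did not overlap (log2 fold change 0.31, SE 0.0546, edgeR adjusted p = 1.12e-05), though 14.7% of its exonic bases are shared on the same strand with a neighbouring gene, March2, not analysed here.

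The 4 genes of the hnRNP F/H group, whose proteins bind runs of G, did not move together. Hnrnph3, the scarcest tested member at 16.9 ± 1.45 FPKM with DMSO (SD, n = 3), had 360, 374 and 319 normalised counts with DMSO and 449, 482 and 461 with SD70. Its groups did not overlap, at a log2 fold change of 0.40 (SE 0.0784, edgeR adjusted p = 4.13e-05). Hnrnph2, on the X chromosome, had 4475, 4510 and 4417 normalised counts with DMSO and 3855, 3617 and 3552 with SD70. All its SD70 samples were below all DMSO samples (log2 fold change -0.28, SE 0.0493, edgeR adjusted p = 8.54e-06). Hnrnpf rose by 0.24 (edgeR adjusted p = 6.06e-05) and Hnrnph1 by 0.18 (edgeR adjusted p = 0.00192) on the log2 scale. The call for Hnrnph1 was lost under 6 of the 14 alternatives, with a largest adjusted p of 0.0262. The 4 sequences are close to each other, and how the counting divided reads that fit several of them is not given in the sources used here. Counts that were not whole occurred in all 6 samples for Hnrnpf and Hnrnph3 and in none for Hnrnph1 and Hnrnph2. Of the other members, only Hnrnpu and Hnrnpab had such counts.

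Of the other hnRNP genes that passed, Hnrnpab, a partner in RNA transport and translation, rose by 0.23 (SE 0.0484, edgeR adjusted p = 1.52e-04). Hnrnpr rose by 0.16 (SE 0.0503, edgeR adjusted p = 0.00585) and lost its call under 6 of 14 alternatives. Hnrnpl, which binds CA repeats, fell by 0.17 on the log2 scale (SE 0.0488, edgeR adjusted p = 0.00284) and lost its call without DMSO 3 (adjusted p = 0.0187) and without SD70 1 (adjusted p = 0.0107). Phykpl exons overlap 29.1% of the exonic bases of Hnrnpab from the opposite strand, and other genes overlap 26.5% of those of Hnrnpf.

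The 3 members with the highest FPKM, Hnrnpa1, Hnrnpa3 and Hnrnpa2b1, did not pass. Hnrnpa1, the most abundant member of all at 537 ± 10.9 FPKM with DMSO (SD, n = 3) and a repressor of exon inclusion, had 14178, 14204 and 13890 normalised counts with DMSO and 13293, 12737 and 13684 with SD70. Its SD70 samples were all below its DMSO samples by a narrow margin, with a log2 fold change of -0.09 (SE 0.0476, edgeR adjusted p = 0.101). Hnrnpa3 had 29664, 30773 and 29726 normalised counts with DMSO and 33785, 31181 and 32974 with SD70. The groups did not overlap in counts but did on the FPKM scale, where its mean was 446 with DMSO and 462 with SD70, and the log2 fold change was 0.12 (SE 0.0477, edgeR adjusted p = 0.0307). Hnrnpa2b1, next in level at 420 ± 22.5 FPKM, was at -0.03 (edgeR adjusted p = 0.567). Hnrnpc, which binds U-rich tracts, and Hnrnpk, which binds C-rich tracts, sat just outside the threshold, at 0.15 and 0.14 with an edgeR adjusted p of 0.0101 each. Both passed with DESeq2 and in 1 fit each with a sample left out, but under the other alternatives neither passed, and the values went down to 0.06 for Hnrnpc (largest adjusted p = 0.322, limma) and 0.10 for Hnrnpk (largest adjusted p = 0.0849).

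The remaining hnRNP genes without a call were Hnrnpdl at -0.12, Hnrnpll at 0.08, Hnrnpa0 at 0.01, Hnrnpul1 at -0.02 and Hnrnpul2 at 0.00 (log2 fold changes, edgeR adjusted p of 0.0546 to 0.971). All 5 had overlapping groups in normalised counts. Hnrnpa1l2-ps2, a pseudogene by its symbol, had 1 count in DMSO 3 and 0 in the other 5 samples, and was not tested.

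**Figure D3:**
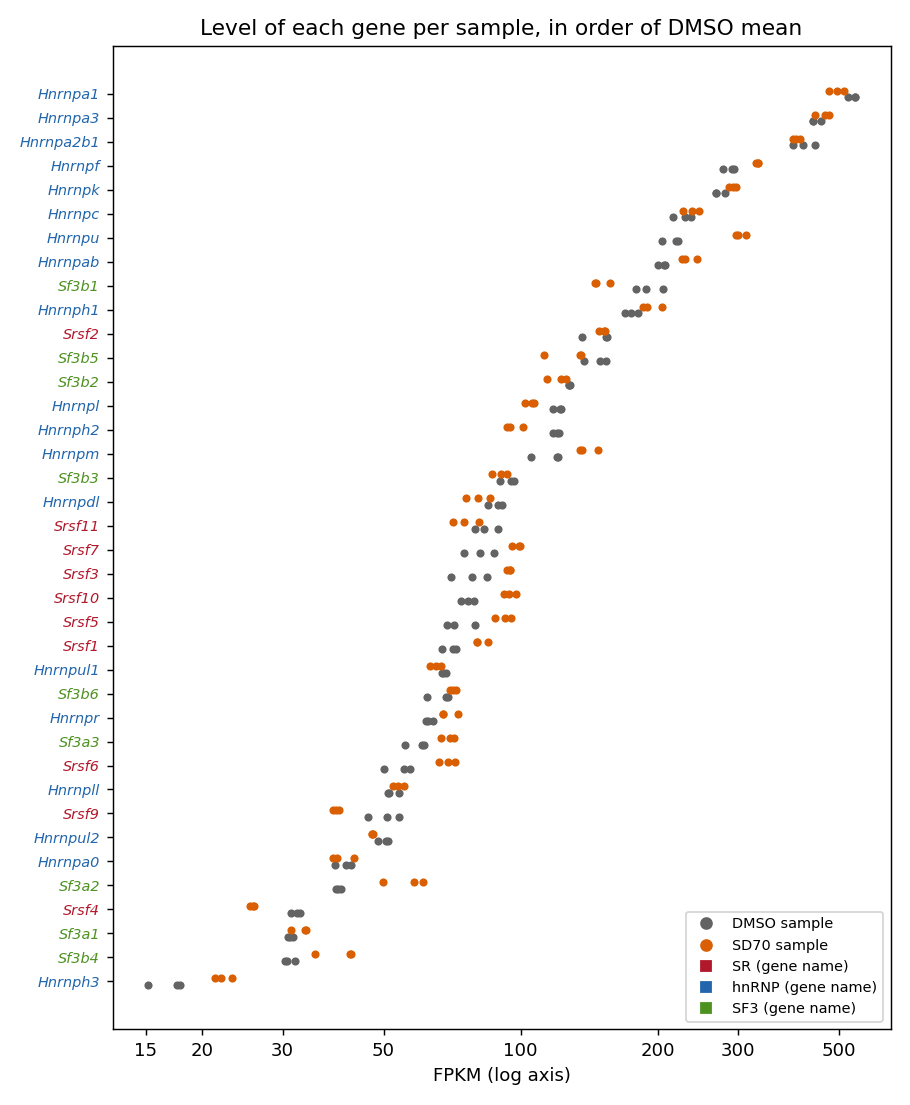
FPKM of each tested member in every sample on a log axis, ordered by the mean of the DMSO samples, with gene names coloured by family. Hnrnpa1, Hnrnpa3 and Hnrnpa2b1 lead at 537, 446 and 420 FPKM on average with DMSO, and the SD70 samples of Hnrnpu sit clearly to the right of its DMSO samples.

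Of the 9 tested SF3 genes 3 rose, 1 fell and 5 passed in neither direction, so that 44.4% were called against 49.9% of all genes, with a median log2 fold change of 0.11 (range -0.29 to 0.52). Without DMSO 1 this median was 0.06. Of the SF3A subunits 2 of 3 rose, and of the SF3B subunits 1 of 6 rose and 1 fell. The summed FPKM nevertheless went down, from 789 ± 10.2 to 758 ± 25.7 (SD, n = 3 each, ratio 0.962), with no overlap between the groups. As a share of all FPKM the groups overlapped, at 0.1419% to 0.1433% with DMSO and 0.1333% to 0.1426% with SD70. As a share of all counts they did not. Sf3b1, the most abundant SF3 gene, was the gene that fell.

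Sf3a2, a core SF3A subunit, had 817, 832 and 821 normalised counts with DMSO and 1034, 1290 and 1216 with SD70. SD70 1 was lower than the other 2 SD70 samples but above all DMSO samples, and the log2 fold change of 0.52 (SE 0.0664, edgeR adjusted p = 4.33e-08), or 1.43-fold, was the largest rise of all members. Plekhj1 exons overlap 16.1% of its exonic bases from the opposite strand, and Plekhj1 had 585 and 643 normalised counts with DMSO and SD70 (edgeR adjusted p = 0.085). Sf3a3 had 1387, 1513 and 1550 normalised counts with DMSO and 1789, 1708 and 1810 with SD70. The groups did not overlap (log2 fold change 0.25, SE 0.0554, edgeR adjusted p = 1.83e-04). By level these were the leading SF3A subunits, at 59.3 ± 3.11 FPKM for Sf3a3 and 39.7 ± 0.524 FPKM for Sf3a2 with DMSO (SD, n = 3), and the remaining subunit, Sf3a1, was at a log2 fold change of 0.11 (edgeR adjusted p = 0.0573).

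Sf3b1, the branch-site clamp of the U2 snRNP and a gene mutated in several blood cancers, had 14844, 13491 and 13112 normalised counts with DMSO and 11913, 10965 and 11010 with SD70. Replicate 1 was the highest in each group, the groups did not overlap, and the log2 fold change was -0.29 (SE 0.0517, edgeR adjusted p = 1.12e-05). Per length its level was 191 ± 13.2 FPKM with DMSO and 150 ± 6.59 FPKM with SD70 (mean ± SD of 3 samples each). Sf3b4, a subunit that contacts RNA near the branch site, had 783, 820 and 788 normalised counts with DMSO and 929, 1111 and 1107 with SD70. As for Sf3a2, SD70 1 was the lowest of its group yet above every DMSO sample (log2 fold change 0.40, SE 0.0655, edgeR adjusted p = 3.55e-06).

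Sf3b5, a small SF3B subunit and second to Sf3b1 at 147 ± 8.40 FPKM with DMSO (SD, n = 3), had 1255, 1418 and 1415 normalised counts with DMSO and 1047, 1284 and 1244 with SD70. The groups overlapped, since SD70 2 was above DMSO 1, and the log2 fold change of -0.19 (SE 0.0676, edgeR adjusted p = 0.0155) did not pass, although it did under 6 of the 14 alternatives, among them without DMSO 1 (adjusted p = 0.00316) and without SD70 2 (adjusted p = 0.00496). Sf3b2 at -0.05, Sf3b3 at -0.03 and Sf3b6 at 0.11 were the other subunits with no call (edgeR adjusted p of 0.0976 to 0.605).

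**Figure D4:**
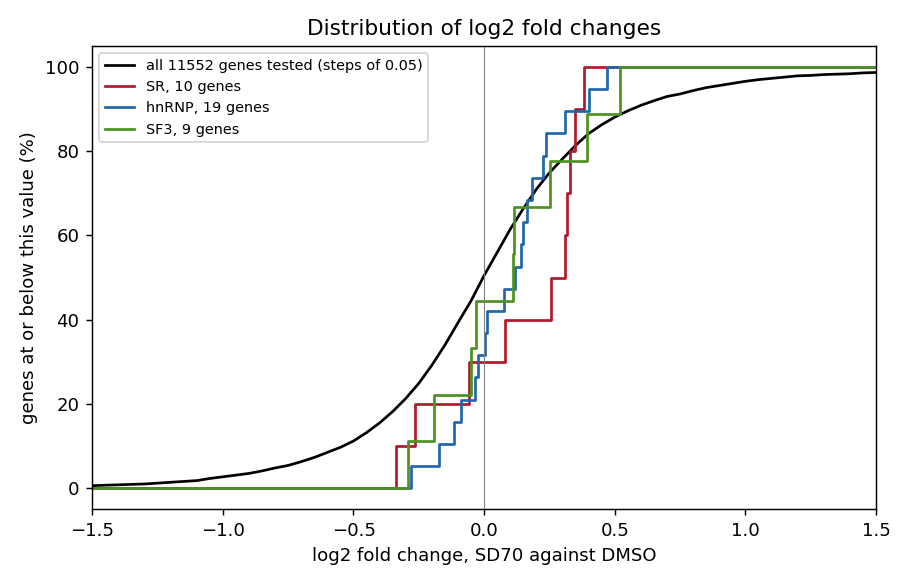
Share of genes at or below each log2 fold change, for all 11552 genes tested (black) and for the 3 families as steps. At a log2 fold change of 0.3 the curve stands at 78.2% for all genes, 50% for SR, 84.2% for hnRNP and 77.8% for SF3.

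The distribution of log2 fold changes also showed how narrow the members' range was beside that of all genes. Members were more abundant, with a median FPKM with DMSO of 82.6 against 13.2 over all genes tested. The part of this difference in level in the narrower range was not tested. At -0.5, 11.2% of all genes and 0 members had been reached. At 0, the curves stood at 50.5% for all genes, 30% for SR, 31.6% for hnRNP and 44.4% for SF3. Over all members, the summed level was 5060 ± 119 FPKM with DMSO and 5250 ± 62.6 FPKM with SD70 (mean ± SD of 3 samples each). As a share of all FPKM this is 0.915% and 0.959%, and in counts the members made up 1.3% and 1.36% of each group's total on average.

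The members also differed by features that the choice by symbol did not use. In GENCODE, a transcript of the NMD type was annotated for 19 of the 38 tested members (50%), against 29.6% of the 11398 tested genes matched by symbol. Among the SR genes this was 9 of 10, all but Srsf10, among the hnRNP genes 9 of 19, and among the SF3 genes 1 of 9, Sf3b1. Members that rose had such a transcript in 8 of 16 cases, members that fell in 4 of 5 and members with no call in 7 of 17. A retained-intron transcript was annotated for 28 members (73.7%) and for 60.3% of those genes. The counts here add all transcripts of a gene, so poison-exon and productive transcripts were not separated.

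RefSeq promoters were found for 36 of the 40 members, 49 promoters in all, some of which overlap because a gene can have several starts. The ETS site CCGGAAG was present in 16 of them (32.7%), in 18.2% of promoters of tested genes and in 8.86% of all promoters. It occurred in 6 of 7 SF3 genes (Sf3a1, Sf3a2, Sf3a3, Sf3b2, Sf3b3 and Sf3b6), in 4 of 11 SR genes and in 1 of 18 hnRNP genes. By gene, it was held by 5 of 15 members that rose, 1 of 5 that fell and 5 of 14 with no call. The CCAAT box was in 51.0% of member promoters, 38.6% of those of tested genes and 37.4% of all, and in 14 of 18 hnRNP genes. The GC box GGGCGG was in 75.5%, 62.7% and 35.7%, respectively, and by gene in 12 of 15 members that rose, 5 of 5 that fell and 9 of 14 with no call.

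The half-site TGACGT was in 18.4% of member promoters, 11.7% of those of tested genes and 7.51% of all, among them Srsf6, Srsf3 and Srsf11. The E-box CACGTG was in 8.16%, 9.97% and 7.15%, and the TATA box TATAAA in 12.2%, 6.86% and 13.6%. The E-box and the half-site can share bases, and a match is no more than the presence of these letters.

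Other parts of the splicing machinery, from lists of genes by known role, give the setting for the members. Among 13 U2AF and U2-associated factors, 8 rose and 0 fell in edgeR, with a median log2 fold change of 0.31. At an unadjusted p under 0.05, 3 of these were lower, DESeq2 called 0 lower and the alternatives gave 0 to 2, with 2 for library totals alone and without DMSO 1. Of these 8, Phf5a, named here after its values were seen, encodes a further SF3B subunit that the choice by symbol does not include, and it was at a log2 fold change of 0.31 (edgeR adjusted p = 5.38e-05). Dhx15, the helicase that takes spliceosomes apart, went from 4973 ± 56.9 to 6832 ± 187 normalised counts (SD, 3 samples per group), and Sf1, the branch-point binding protein, from 3273 ± 65.6 to 4433 ± 202 (edgeR adjusted p = 4.22e-10 and 2.81e-09). Smndc1, a spliceosome assembly factor, was at 0.43 (edgeR adjusted p = 5.22e-09).

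Among 32 other RNA-binding splicing regulators, 18 rose and 0 fell in edgeR, with a median of 0.20. The count higher was 14 to 17 when 1 sample was left out. No gene of this list was lower at an unadjusted p under 0.05 or in DESeq2 or limma. Rbm39, an SR-like factor related to U2AF, went from 6106 ± 400.0 to 11170 ± 686 normalised counts (SD, n = 3 each, log2 fold change 0.87, SE 0.0539, edgeR adjusted p = 1.32e-15), a larger change than that of any SR, hnRNP or SF3 gene. Taf15, an RNA-binding protein of the FET family, was at 0.81 and Pspc1, a paraspeckle protein, at 0.74.

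Lists closest to the SR proteins by role were mixed. Of 20 SR-related proteins 5 rose and 5 fell, with a median of 0.01. Scaf4 was at 0.51, Srrm1 at -0.50 and Tra2b at 0.45 on the log2 scale (edgeR adjusted p = 4.72e-09, 1.31e-09 and 6.70e-10). Of 10 tested SR protein kinases and importins 3 rose and 2 fell, with a median of 0.02, and 1 was called lower without DMSO 1 or without SD70 3. Clk3, a kinase that phosphorylates SR proteins, went from 1176 ± 58.7 to 810.7 ± 48.0 normalised counts, Dyrk1a, another kinase, from 1004 ± 7.54 to 1408 ± 77.3, and Tnpo1, an importin, from 7791 ± 321 to 9500 ± 155 (SD, n = 3 each).

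Of 8 Sm core proteins 1 rose, Snrpb at 0.30, and 1 fell, Snrpn at -0.27, with a median of -0.11. The fall was not called with DESeq2 or without DMSO 2, DMSO 3, SD70 1 or SD70 3, and 2 to 3 genes were lower without DMSO 1, without SD70 2 and under 3 other alternatives. U1 and U2 snRNP proteins gave 2 higher and 1 lower of 5. The count higher was 1 with library totals alone and without DMSO 1, DMSO 2, DMSO 3 or SD70 2, and the count lower was 0 without DMSO 2, DMSO 3 or SD70 3. The tri-snRNP gave 5 higher and 1 lower of 14, with Usp39 at 0.44, and the count lower was 0 without DMSO 2 or SD70 1 and 2 without DMSO 1. The Prp19 complex and second-step factors gave 4 higher and 2 lower of 19, with Slu7, which acts in 3′ splice site choice, at 0.52. Minor spliceosome proteins gave 2 higher and 2 lower of 9. The count higher was 1 with library totals alone, in both limma fits and without DMSO 1, DMSO 3, SD70 1 or SD70 3, and the count lower was 1 without DMSO 2 or SD70 3. Exon junction complex and NMD factors gave 6 higher and 2 lower of 15, with Magohb at 0.58 and Rbm8a at -0.42. These counts stand beside 25.8% higher and 24.2% lower among all genes, and no list was tested as a list.

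**Figure D5:**
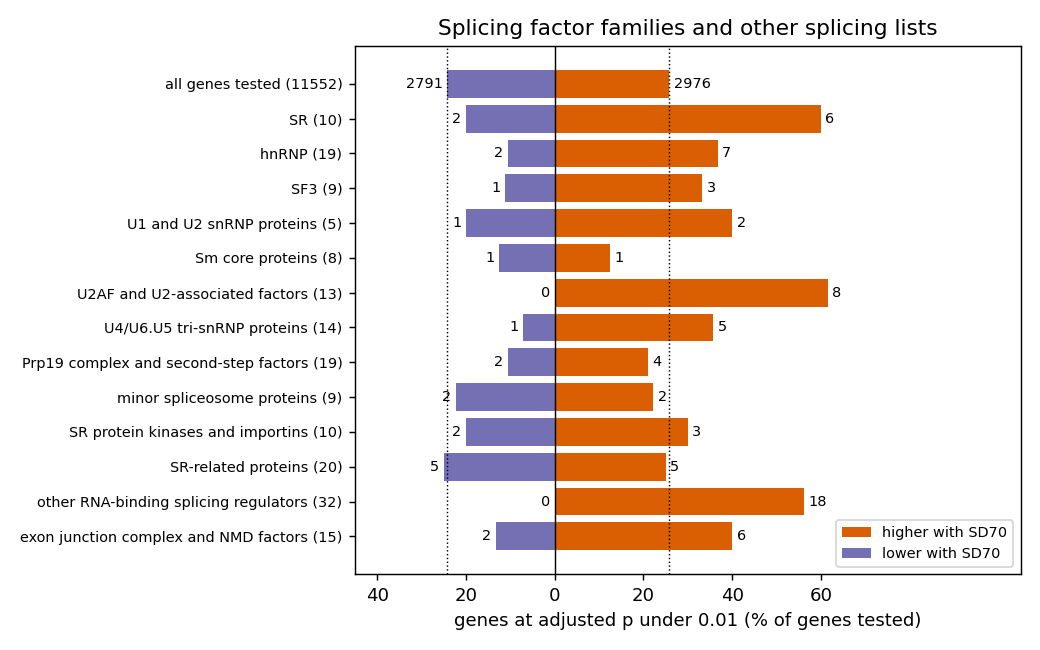
Percentage of tested genes that were higher (orange, to the right) or lower (purple, to the left) with SD70 at an adjusted p under 0.01, for all genes, the 3 families and 10 other splicing lists, with the number of genes tested in parentheses, the number of calls beside each bar, and dotted lines at 25.8% and 24.2%, the values for all genes. SR, U2AF and U2-associated factors and other RNA-binding regulators reach 60.0%, 61.5% and 56.2% higher.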

How the data were processed

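RNA-seq was done on 3 DMSO and 3 SD70 samples of Lewis cells. Per the labels, mRNA was purified with oligo(dT) beads and reverse transcribed from random hexamers. By the study's methods, sequencing used the BGISEQ-500 platform and reads were aligned with HISAT to GRCm38.p6, while the submitters' processing notes name StringTie 1.3.3b and the build mm8; the counting tool and strand setting are not given in the sources used here. Extraction is described for tissue, although the treatment is described for cultured cells. The deposited files give, per gene and sample, an expected count (8.84% to 9.28% of values are not whole) and a second value read as FPKM from its relation to count and length; the authors normalised the FPKM values.

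Expected counts were rounded and tested in edgeR 4.0.16 (R 4.3.3) with filterByExpr, TMM factors (0.984 to 1.016) and the robust quasi-likelihood test, adjusted by Benjamini-Hochberg over 11552 genes; a call is an adjusted p under 0.01, with or without a minimum log2 fold change of 1 in either direction. Normalised counts are counts scaled to a common library size. Data were simulated for this comparison with 11292 unchanged genes. In them, edgeR called 90 of 100 genes at a log2 change of 0.5, 97 of 100 at 1 and 2 unchanged genes. Every simulated gene had the same relative spread, changed genes were not drawn from the lowest counts, and far fewer genes changed than here. These rates may not hold for the real data. No 2 samples of the same group were duplicates (chi-square per gene of 2.21 or more). Alternatives were DESeq2 1.42.0, its size factors, library totals alone, other count filters, limma 3.58.1 on log2(FPKM + 1) and log2(FPKM + 0.1), a replicate block and leaving out each sample. Values in every sample are given for the 16 members with the largest absolute log2 fold change among those called and the 2 most abundant of the SR, hnRNP, SF3A and SF3B genes. Of other lists, genes are named from the 3 with the largest absolute log2 fold change among those called, apart from Phf5a. Members and lists were chosen with earlier results of these data known, and motifs and annotation features after the data were seen. One hnRNP gene is not reported here.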

Additional observations from a re-analysis of the deposited data

How the results depend on the processing

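Under 14 alternative fits, 14 to 18 members were higher and 4 to 6 lower (19 and 6 at an adjusted p under 0.05), no called member changed sign, and none passed with an absolute log2 fold change of 1. The SR median log2 fold change of 0.28 was 0.244 with library totals alone, 0.247 on log2(FPKM + 0.1), 0.245 on log2(FPKM + 1), and 0.233 to 0.299 when 1 sample was left out. The hnRNP median was 0.052 and 0.0519 on the FPKM scales, and the SF3 median 0.0595 to 0.118 when 1 sample was left out, lowest without DMSO 1. Hnrnpa0 went to -0.02667 (library totals), -0.02012 (FPKM + 0.1) and -0.01967 (FPKM + 1), and ranged from -0.03957 to 0.04203 with 1 sample left out. Hnrnpul2 went to -0.0008083 (at least 1 count in any sample), -0.008815 (at least 10 in every sample), -0.03596 (library totals), -0.08824 (FPKM + 0.1) and -0.08665 (FPKM + 1), and ranged from -0.009889 to 0.006698 with 1 sample left out. The cause was not tested for any of these. Same-numbered samples had correlations of deviations of 0.168, -0.0262 and -0.0407 over 5776 genes. Those of differently numbered samples ran from -0.245 to 0.319. Deviations within a group depend on each other, so these values cannot settle whether the numbers pair the samples. A replicate block gave 16 members higher and 6 lower, the added one being Sf3b5, and 5913 calls over all genes. The lowest count of a tested member in a sample was 333; Srsf12 and Hnrnpa1l2-ps2 were too low to test, and recovery of changes under 0.5 on the log2 scale, where most members lie, was not simulated.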
